A study of Rattus norvegicus with 9 samples.

Results

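The receptor tyrosine kinases described here are the growth factor receptors through which glial progenitors read platelet-derived growth factor (Pdgfra, Pdgfrb), fibroblast growth factors (Fgfr1, Fgfr2, Fgfr3), the epidermal growth factor and neuregulin family (Egfr, Erbb2, Erbb3, Erbb4) and brain-derived neurotrophic factor (Ntrk2). Members were the array probes annotated with 1 of these 10 gene symbols. In all, 23 of 35129 probes qualified, and they covered 9 of the 10 genes, among 12167 genes with a named probe. No probe was annotated with Fgfr3 alone, so Fgfr3 is not analysed here. Pdgfra and Fgfr1 had 1 probe each, Fgfr2, Erbb3 and Erbb4 had 2, Pdgfrb, Egfr and Erbb2 had 3, and Ntrk2 had 6.

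Oligodendrocyte progenitor cells from newborn rats were separated into 3 populations by surface antigens, and each population was hybridised to 3 arrays in 1 colour, which carry the numerals I, II and III. O4 cells carried the sulfatide antigen O4 and lacked NG2, NG2/A2B5 cells carried both the NG2 proteoglycan and the ganglioside antigen A2B5, and NG2 cells carried NG2 only. The labels name no treatment, strain, sex or genotype. The design text mentions 3 cultures, and whether a numeral stands for a culture is not stated in the labels. The p-values below therefore weigh differences only against the spread among these 9 arrays. Where a model leaves out the numeral, that spread includes differences between numerals.

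Ligand binding brings receptor tyrosine kinases together in pairs, which then phosphorylate each other and recruit adaptors that start the MAP kinase and PI3 kinase cascades. Platelet-derived growth factor acting on Pdgfra is the classical mitogen and survival signal of oligodendrocyte progenitors, and fibroblast growth factor receptors keep these cells dividing. Erbb3 binds neuregulins but has little kinase activity of its own and signals with Erbb2 as its partner, and Ntrk2 encodes TrkB, whose kinase-bearing and truncated forms come from 1 gene.

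Values are deposited probe intensities on a linear scale, with array medians between 1.05 and 1.07. The 25th percentile of all probes lay between 0.205 and 0.255, depending on the array, and the mean of these percentiles, 0.225, is used below as the level near background. Between 34926 and 34975 probes had a value on each array, and any pair of arrays correlated at 0.957 to 0.986 over 9783 genes above background on the log2 scale. Of the oligodendrocyte progenitor markers, 5 of 6 were measured and none lay under the 25th percentile on all arrays. Their summed intensity ranged from 144 to 222 among O4 arrays, from 154 to 251 among NG2/A2B5 arrays and from 192 to 230 among NG2 arrays. Cspg4, the gene of NG2, read 125, 92.1 and 154 on O4 arrays I, II and III, 104, 127 and 185 on NG2/A2B5 arrays, and 135, 146 and 166 on NG2 arrays. The O4 arrays thus overlapped the others in Cspg4 RNA, although the O4 cells were sorted as lacking NG2 (O4 minus NG2 -0.30, -0.92 to 0.32). Across the 9 arrays Sox10 read 29.7 to 47.6 and Olig1 6.32 to 9.24, while the Olig2 probe was dim at 0.292 to 0.709. Among markers of other cells, 4 endothelial genes summed to 1.94 to 2.71 on O4 arrays, 2.01 to 2.78 on NG2/A2B5 arrays and 1.85 to 2.62 on NG2 arrays. The 5 microglial genes summed to 1.19 to 1.42 on O4 arrays, 0.971 to 1.49 on NG2/A2B5 arrays and 0.880 to 1.32 on NG2 arrays. The 6 pericyte markers summed to 12.1 to 17.0 on O4 arrays, 12.0 to 17.7 on NG2/A2B5 arrays and 13.6 to 14.3 on NG2 arrays. Anpep, at 10.1 to 15.7, made up most of that sum, and 1 of the 6, Rgs5, was under the 25th percentile on all 9 arrays. The 4 fibroblast markers summed to 21.1 to 25.8 on O4 arrays, 22.5 to 26.9 on NG2/A2B5 arrays and 22.1 to 32.4 on NG2 arrays. Nearly all of this came from the collagen genes Col1a1, at 4.92 to 16.6, and Col1a2, at 12.9 to 17.6. Lum was under the 25th percentile on all 9 arrays and Dcn on 8. The part of these cells in the results was not tested. The 6 astrocyte markers summed to 48.7 to 94.2 on O4 arrays, 61.5 to 107 on NG2/A2B5 arrays and 65.3 to 82.6 on NG2 arrays. Slc1a3, at 38.6 to 96.4, made up most of that sum, while Gfap itself read only 0.113 to 0.597. These are bulk measurements, so fewer cells of a type and less RNA per cell cannot be told apart.

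In intensity, the receptor genes covered nearly the whole range of the array. Each gene is represented by its brightest probe, by the mean of log2 values, and 7 of the 9 genes averaged over the background level, while Pdgfrb and Egfr averaged under it. Signal depends on the probe as well as on the RNA, so these readings place each probe on its array and do not rank the genes by abundance. The main Ntrk2 probe lay at the 98.1 to 99.0 percentile of its arrays. Erbb3 lay at the 73.7 to 79.4 percentile, Erbb2 at 56.7 to 71.6 and Fgfr1 at 57.3 to 61.5. Pdgfra, the receptor by which these cells are often recognised, lay lower, at the 24.6 to 47.7 percentile.

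**Figure D1:**
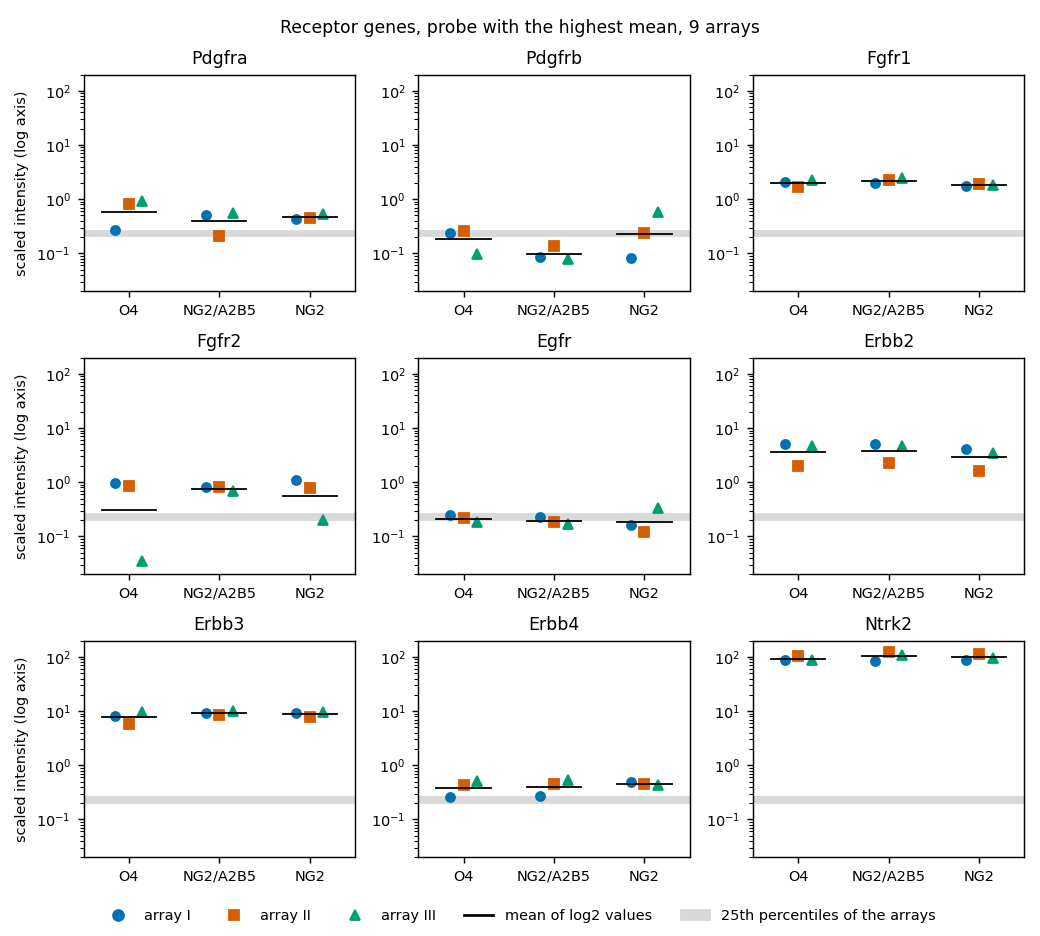
Probe intensity of the representative probe of each receptor gene (log axis) on the 9 arrays, grouped as O4, NG2/A2B5 and NG2, with 1 point per array, lines at population means of log2 values and a grey band over the 25th percentiles of the arrays. The populations overlap for most genes, and Ntrk2 reads between 85.9 and 123 while Pdgfrb and Egfr stay near the background level.

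Pdgfra, the receptor for the A form of platelet-derived growth factor, read 0.275, 0.802 and 0.917 on O4 arrays I, II and III. The NG2/A2B5 arrays gave 0.507, 0.213 and 0.559, and the NG2 arrays 0.438, 0.449 and 0.540. O4 held the 2 highest readings and 1 of the 2 lowest, so its values overlapped both other populations. On the log2 scale Pdgfra averaged -0.77 ± 0.95 for O4, -1.35 ± 0.76 for NG2/A2B5 and -1.08 ± 0.16 for NG2 (SD, n = 3 each). O4 minus NG2 came to 0.31 with a 95% interval of -0.91 to 1.52, and O4 minus NG2/A2B5 to 0.58 (-0.63 to 1.80). These intervals leave room for Pdgfra to be lower or clearly higher in O4. Pdgfrb, the receptor for the B form and a gene of pericytes, read 0.236, 0.253 and 0.0986 on O4 arrays, 0.0842, 0.137 and 0.0795 on NG2/A2B5 arrays, and 0.0814, 0.242 and 0.592 on NG2 arrays. NG2 array III held its only reading well over the background level, and 6 of its 9 readings were under the 25th percentile of their array. The other Pdgfrb probes were under it on 8 and 7 of the 9 arrays.

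Fgfr1, the receptor of basic fibroblast growth factor that is broadly expressed in glia, gave the tightest readings of all representative receptor probes, with an SD of 0.18 over the 9 arrays on the log2 scale. It read 2.06, 1.69 and 2.28 in O4, 1.97, 2.24 and 2.43 in NG2/A2B5, and 1.76, 1.90 and 1.79 in NG2. Every NG2/A2B5 array lay over every NG2 array, and O4 spanned both. The share of all genes with such a separation was not counted. NG2/A2B5 minus NG2 was 0.28 (SE 0.16, interval -0.09 to 0.66) and was positive in all 3 numerals, at 0.16, 0.24 and 0.44 for I, II and III. It did not pass limma's moderated test over all genes (adjusted p = 0.9999). Fgfr1 differed by 0.14 for O4 minus NG2 (-0.24 to 0.51) and by -0.14 for O4 minus NG2/A2B5 (-0.52 to 0.23). For O4 minus NG2 this interval was the narrowest among the 9 genes.

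Fgfr2, whose epithelial and mesenchymal splice forms bind different fibroblast growth factors, was less stable. Its brighter probe read 0.978, 0.837 and 0.0345 in O4, 0.801, 0.817 and 0.675 in NG2/A2B5, and 1.12, 0.768 and 0.202 in NG2. Array III gave the lowest reading in each population, and in O4 that reading was under nearly all probes of its array (percentile 2.13). The second Fgfr2 probe did not share this, with 0.367, 0.489 and 0.404 on arrays III of O4, NG2/A2B5 and NG2, against 0.367, 0.225 and 0.416 on arrays II. Between populations, the brighter probe differed by -0.87 for O4 minus NG2, with the widest interval of the 9 genes, -3.79 to 2.04. That difference was -0.20, 0.13 and -2.55 in I, II and III, so it rests largely on arrays III. The second probe had the opposite sign, at 0.40 (-0.68 to 1.48) in the fit over all probes.

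Among the epidermal growth factor receptor family, Egfr itself read near the background level. Its best probe read 0.245, 0.216 and 0.184 in O4, 0.229, 0.185 and 0.168 in NG2/A2B5, and 0.160, 0.119 and 0.335 in NG2. The other Egfr probes were under the 25th percentile on 8 and 9 of the 9 arrays, so no fold is given for this gene. Erbb4, a neuregulin receptor with kinase activity, read 0.265, 0.430 and 0.506 in O4, 0.270, 0.449 and 0.525 in NG2/A2B5, and 0.488, 0.451 and 0.427 in NG2. O4 and NG2/A2B5 arrays of the same numeral lay close together, with differences of -0.03, -0.06 and -0.06, and O4 minus NG2/A2B5 was -0.05 (-0.78 to 0.68). The second Erbb4 probe was dimmer, at 0.113 to 0.536, and under the 25th percentile on 5 arrays. It did not share the closeness of O4 and NG2/A2B5, with differences of 1.32, -0.03 and 0.31 in I, II and III. It put O4 over NG2 by 0.25, 1.30 and 0.83, where the main probe gave -0.88, -0.07 and 0.24.

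Erbb3, the neuregulin-binding partner with a weak kinase, was bright and overlapped between the populations. It read 7.97, 5.81 and 9.62 in O4, 9.24, 8.44 and 9.99 in NG2/A2B5, and 9.06, 7.88 and 9.47 in NG2. On the log2 scale it averaged 2.93 ± 0.37 for O4, 3.20 ± 0.12 for NG2/A2B5 and 3.13 ± 0.14 for NG2 (SD, n = 3 each). O4 array II was the lowest of the 9, and O4 lay under NG2/A2B5 within each numeral, with differences of -0.21, -0.54 and -0.05 for I, II and III. O4 minus NG2/A2B5 was -0.27 (-0.75 to 0.21), and O4 minus NG2 was -0.20 (-0.68 to 0.28). NG2/A2B5 minus NG2 was 0.07 (-0.41 to 0.55), the smallest of the 3. The second Erbb3 probe read 0.0199 to 0.261 and lay near background.

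Erbb2, which binds no known ligand and serves as the shared partner of the other family members, varied most among the 4 brightest receptor genes, with a low reading on array II of each population. Its brightest probe read 5.12, 1.97 and 4.62 in O4, 5.08, 2.27 and 4.69 in NG2/A2B5, and 4.17, 1.64 and 3.53 in NG2. The populations overlapped, with means of 1.85 ± 0.76 for O4, 1.92 ± 0.64 for NG2/A2B5 and 1.53 ± 0.72 for NG2 on the log2 scale (SD, n = 3 each). Within each numeral, NG2 was the lowest of the 3 populations. O4 exceeded NG2 by 0.29, 0.26 and 0.39 in I, II and III, and NG2/A2B5 exceeded NG2 by 0.28, 0.46 and 0.41. Pooled over numerals, O4 minus NG2 was 0.31 (-0.89 to 1.52), while NG2/A2B5 minus NG2 came to 0.38 (-0.82 to 1.59). With the numeral as a replicate block the intervals narrowed to 0.04 to 0.59 for O4 minus NG2 and to 0.11 to 0.66 for NG2/A2B5 minus NG2, both above 0. Neither difference passed over all genes under the block (limma adjusted p = 0.338 for O4 minus NG2 and 0.482 for NG2/A2B5 minus NG2). The second Erbb2 probe, at 0.632 to 1.01, also gave O4 over NG2 in all 3 numerals, by 0.18, 0.07 and 0.15. For NG2/A2B5 minus NG2 it gave 0.16, -0.42 and -0.20, so the probes differed there. The third Erbb2 probe was under the 25th percentile on 7 arrays.

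Ntrk2 was the brightest member. Its main probe (probe 83067) read 87.3, 104 and 86.7 in O4, 85.9, 123 and 109 in NG2/A2B5, and 89.2, 115 and 97.2 in NG2. The 3 populations overlapped, and O4 minus NG2 was -0.12 (-0.55 to 0.32), O4 minus NG2/A2B5 -0.19 (-0.62 to 0.25) and NG2/A2B5 minus NG2 0.07 (-0.37 to 0.51). On this main probe, a 2-fold difference between populations lies outside all 3 intervals. The interval of probe 317046 for O4 minus NG2, given below, includes such a difference. On the main probe, array II was the highest within each population.

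None of the 9 receptor genes passed in any comparison of populations, with limma's moderated test and Benjamini-Hochberg adjustment over all genes. The count was 0 of 9 for O4 minus NG2, where 0.00822% of 12165 genes passed, and 0 of 9 for O4 minus NG2/A2B5, where 0.00822% passed. It was 0 of 9 for NG2/A2B5 minus NG2, where 0% of 12166 genes passed, and 0 of 9 in the F test over the 3 populations, where 0.00822% passed. Before adjustment, 0 of 9 receptors had p under 0.05 in these tests, against 973, 399, 545 and 654 of all genes. Other settings put single receptors under 0.05 before adjustment. In the 3 contrasts they were Erbb2 under the replicate block in O4 minus NG2 and NG2/A2B5 minus NG2, Fgfr1 in NG2/A2B5 minus NG2 with plain pooled-variance statistics, and Ntrk2 in O4 minus NG2 with the mean of its probes. Leaving out NG2 array III did so for Egfr in O4 minus NG2, leaving out O4 array I for Pdgfra in O4 minus NG2/A2B5, and leaving out NG2 array I for Pdgfrb in NG2/A2B5 minus NG2. The F test had 1 receptor under 0.05 with the block, Erbb2, and 1 without NG2 array I. None of these passed after adjustment. In the model without the block, the lowest adjusted p of a receptor was 0.831, for Erbb3 in O4 minus NG2. With the numeral as a fixed block, every interval of the receptors other than Erbb2 still included 0. For O4 minus NG2/A2B5 the interval narrowed to -0.61 to 0.08 for Erbb3 and -0.48 to 0.11 for Ntrk2. It widened to -0.99 to 2.78 for Pdgfrb. With so few calls among all genes, 0 calls do not set the receptors apart from other genes. The receptors were split in sign: O4 exceeded NG2 for 4 and lay under it for 5 (median -0.12, against 0.02 for all genes). In O4 against NG2/A2B5, 3 were higher and 6 lower (median -0.07, against 0.02), and in NG2/A2B5 against NG2, 6 were higher and 3 lower (0.07, against -0.01). These signs are those of the representative probes and include Pdgfrb and Egfr, which averaged under background. For O4 minus NG2, the other probes of Pdgfrb, Fgfr2 and Erbb4 had the opposite sign. The second Erbb3 probe and most Ntrk2 probes kept the negative sign.

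**Figure D2:**
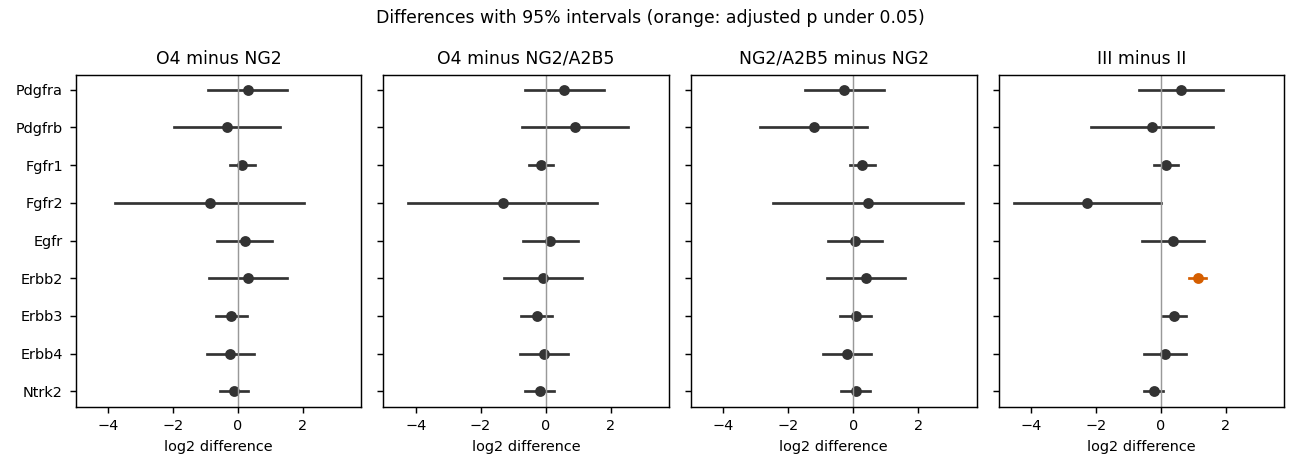
Differences in log2 intensity between populations for the representative probe of each receptor gene, with 95% intervals from limma, in panels for O4 minus NG2, O4 minus NG2/A2B5, NG2/A2B5 minus NG2 and III minus II. Every interval in the 3 panels of populations, drawn without the replicate block, includes 0, and they are narrowest for Fgfr1, Ntrk2 and Erbb3, while Erbb2 in III minus II is drawn in orange for an adjusted p under 0.05.

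The probes of Ntrk2 did not read alike, and 1 of them separated the populations. Probe 317046 read 15.2, 9.62 and 16.1 in O4, 18.2, 16.9 and 20.3 in NG2/A2B5, and 22.3, 20.6 and 22.9 in NG2. Every O4 array lay under every NG2/A2B5 array, and every NG2/A2B5 array under every NG2 array. The order held within each numeral: O4 minus NG2 was -0.56, -1.10 and -0.51 in I, II and III, and NG2/A2B5 minus NG2 was -0.29, -0.29 and -0.18. In the fit over all probes, O4 minus NG2 was -0.72 (SE 0.22, interval -1.25 to -0.20), O4 minus NG2/A2B5 was -0.47 (-0.99 to 0.06) and NG2/A2B5 minus NG2 was -0.25 (-0.78 to 0.27). The first did not pass (limma adjusted p = 0.618). With the numeral as a replicate block, chosen once these values were known, the adjusted p was 0.456. Of 34555 probes with all 9 values, 71 (0.205%) showed the same complete order, and this probe was singled out after its values were seen. Without O4 array II the difference from NG2 was -0.49.

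The remaining Ntrk2 probes gave a mixed picture. Probe 267093 read 4.96, 4.13 and 9.42 in O4, 4.98, 7.11 and 12.2 in NG2/A2B5, and 8.82, 6.90 and 8.50 in NG2, with O4 under NG2 in numerals I and II only (-0.83, -0.74 and 0.15). On this probe every array III lay over every array II. Probe 234101 read 2.14, 2.36 and 2.96 in O4, 2.36, 2.88 and 2.53 in NG2/A2B5, and 2.31, 2.98 and 1.84 in NG2, without a consistent order. Probe 112016, near background at 0.137 to 0.552, read 0.259, 0.191 and 0.137 in O4, against 0.322, 0.403 and 0.466 in NG2. Its difference for O4 minus NG2 was -1.05 (-2.03 to -0.07, adjusted p = 0.632 by limma over all probes). The sixth, probe 29049, was under the 25th percentile on 8 arrays. Over the 6 probes, O4 minus NG2 was negative for 5 and positive for 1, at 0.08. Which TrkB forms the probes match was not tested.

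**Figure D3:**
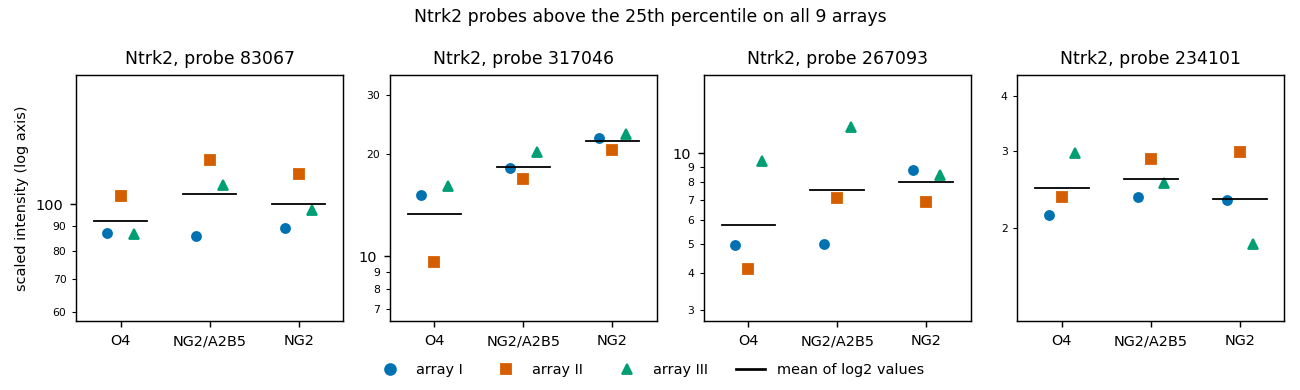
Intensity (log axes, 1 per panel) of the 4 Ntrk2 probes over the 25th percentile on all 9 arrays, with O4, NG2/A2B5 and NG2 from left to right, 1 point per array and lines at population means of log2 values. Probe 317046 shows no overlap between populations (O4 9.62 to 16.1, NG2/A2B5 16.9 to 20.3, NG2 20.6 to 22.9), while the main probe overlaps throughout.

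The numerals were compared in a model with population and numeral as terms. For III minus II, 1 of 9 receptors passed, Erbb2, against 3.56% of 12166 genes (200 higher and 233 lower). For II minus I the same gene passed, against 0.23% of genes. For III minus I, 0 of 9 receptors passed, against 0% of genes, with an unadjusted p under 0.05 for 1 receptor and 1527 genes. In the F test over the numerals Erbb2 again was the 1 receptor that passed, against 0.674% of genes. A single call among 9 genes is too few to set against these shares. The median difference of all genes was -0.08 for III minus II, 0.02 for III minus I and 0.10 for II minus I.

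Erbb2 was low on all arrays II. It read 4.62, 4.69 and 3.53 on arrays III of O4, NG2/A2B5 and NG2, against 1.97, 2.27 and 1.64 on arrays II, with no overlap. Arrays I, at 5.12, 5.08 and 4.17, overlapped arrays III. III minus II was 1.13 (SE 0.11, interval 0.85 to 1.40), a 2.18-fold difference with a limma adjusted p of 0.0228. II minus I was -1.29 (SE 0.11, interval -1.57 to -1.02), or 2.45-fold lower in II, with a limma adjusted p of 0.0454. Leaving out any 1 of the 9 arrays ended both calls, with adjusted p-values of 0.0583 to 0.120 and 0.117 to 0.205, although the differences stayed between 1.08 and 1.18 and between -1.35 and -1.25. Among all genes, these fits left only 0 to 5 calls for III minus II and 0 to 3 for II minus I. The loss of a call is thus not particular to Erbb2. The second Erbb2 probe did not share the size of the change: III minus II was 0.20 (-0.21 to 0.61) and II minus I -0.15 (-0.56 to 0.26) there. In the mean of the 3 probes, 1 of them at background, III minus II was -0.58 with an adjusted p of 0.730. That background probe, the third, was under the 25th percentile on 7 arrays and gave -3.06 (-9.23 to 3.10). Its value rests largely on NG2 array III, where a reading of -0.0027 entered the fit as -12.3 in log2. The third probe, and the mean that includes it, therefore cannot test the change. The second probe went the same way as the brightest, with intervals that include 0. A clear difference of Erbb2 between numerals was thus seen in its brightest probe only.

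The other receptors moved less or less evenly with the numeral. Erbb3, the usual partner of Erbb2, read 9.62, 9.99 and 9.47 on arrays III, against 5.81, 8.44 and 7.88 on arrays II, again without overlap, and its arrays III also lay over all arrays I. III minus II was 0.41 (0.07 to 0.76) and did not pass (limma adjusted p = 0.154). The Fgfr2 probe that was low on arrays III gave -2.27 for III minus II (-4.52 to -0.01, limma adjusted p = 0.209) and -2.51 for III minus I (-4.77 to -0.26, 0.361). Ntrk2 read 104, 123 and 115 on arrays II of O4, NG2/A2B5 and NG2, against 87.3, 85.9 and 89.2 on arrays I. The arrays did not overlap, yet II minus I, at 0.38 (0.09 to 0.68), did not pass (limma adjusted p = 0.213). Pdgfra read higher on all arrays III than on any array I, with a difference of 0.73 (-0.56 to 2.01). Fgfr1 overlapped between all numerals, and III minus II was 0.16 (-0.21 to 0.53). Of the 9 receptors, 6 were higher and 3 lower in III than in II, with a median of 0.16. The share of all genes or probes without overlap between a pair of numerals was not counted. The lack of overlap here and for Erbb2 therefore does not set these receptors apart. In III minus II, 23.7% of all genes had an unadjusted limma p under 0.05. The shares were 12.6% in III minus I and 17.2% in II minus I.

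The pathway around these receptors was followed in lists of ligands, co-receptors, adaptors, kinases, feedback inhibitors, transcriptional targets and other receptor tyrosine kinases. In the comparisons of populations, no gene of these lists passed, where 0.00822%, 0.00822% and 0% of all genes did for O4 minus NG2, O4 minus NG2/A2B5 and NG2/A2B5 minus NG2, so the count of 0 says nothing particular about the lists. This covered 25 ligands of 30 listed, 19 co-receptors and modulators of 22, 27 adaptors of 30, 22 cascade kinases and regulators of 34, 23 feedback inhibitors of 29, 23 targets of 25 and 35 other receptor tyrosine kinases of 48. Pdgfa, the main ligand of Pdgfra, was measured at 8.96 to 19.7 and differed by -0.13 for O4 minus NG2 (-0.90 to 0.63). Fgf9, a ligand of the fibroblast growth factor receptors, differed by -0.78 for O4 minus NG2 (-1.40 to -0.16, limma adjusted p = 0.577). Of the ligands, Ereg, which encodes the Egfr ligand epiregulin, ranked first in the F test over populations (adjusted p = 0.801). It read 0.340, 0.218 and 0.273 on O4 arrays, 0.0624, 0.0394 and 0.0739 on NG2/A2B5 arrays, and 0.107, 0.0861 and 0.0667 on NG2 arrays. Every O4 array lay over all others, but 7 of the 9 readings were under the 25th percentile of their array. Shc2, an adaptor of receptor tyrosine kinases, read 1.54, 1.89 and 2.75 on O4 arrays, 2.10, 2.99 and 2.80 on NG2/A2B5 arrays, and 1.34, 1.61 and 1.48 on NG2 arrays (F test, limma adjusted p = 0.892). It was the first of the adaptors, and its NG2/A2B5 arrays did not overlap its NG2 arrays. How many of all genes separated populations as Ereg and Shc2 did was not counted. First in their lists were also Gpc4 among the co-receptors, Pik3r3 in the cascade and Lrig1 among the feedback inhibitors, each under the 25th percentile on 5 or more arrays, with adjusted p of 0.932, 0.851 and 0.857 in limma's F test. Etv1 led the targets, at 142 to 227, and Alk the other receptors, at 0.233 to 0.619, with adjusted p of 0.951 and 0.944 in that test.

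Between numerals, 14 genes of these lists passed beside Erbb2 for III minus II, where 3.56% of all genes did. None of them still passed when any 1 of the 9 arrays was left out, a check added after the values were seen, with adjusted p between 0.0549 and 0.191 and no change of sign. The same held for Fgfrl1 in II minus I (0.117 to 0.223). Among all genes, leaving out 1 array left 0 to 5 calls for III minus II and 0 to 3 for II minus I. These losses are thus not particular to the lists. Of the 19 co-receptors and modulators, 4 passed for III minus II, 3 higher and 1 lower. Among all 12166 genes, 200 passed as higher and 233 as lower. The median difference of the list was 0.36, against -0.08 for all genes. The lists were chosen with earlier results of these data known, so these numbers describe the list and do not test it. Fgfrl1, a fibroblast growth factor receptor without a kinase domain, read 26.9, 25.5 and 33.6 on arrays III of O4, NG2/A2B5 and NG2, against 8.19, 8.66 and 9.31 on arrays II. It rose by 1.71 (limma adjusted p = 0.0209) and, like Erbb2, was lower in II than in I (-1.23, 0.0454). Lrp1, an endocytic receptor that modulates platelet-derived growth factor receptor signalling, rose by 1.31 (0.0225). Sdc4, a heparan sulfate proteoglycan that presents fibroblast growth factors, rose by 1.48 (0.0250), and its relative Sdc1, named after its values were seen, fell by 1.40 (0.0415).

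Among the transcriptional targets of the pathway, a list chosen with earlier results of these data known, most were lower in III than in II. Of the 23 measured, 5 fell and 0 rose, where 3.56% of all genes passed. In all, 4 of the 23 had a positive difference, against 43.1% of all genes, and 19 had a negative one. The median was -0.41, against -0.08 for all genes. Because of how the list was chosen, these counts and the median describe it and do not test it. The growth-factor-induced cyclin Ccnd2 read 45.0, 48.7 and 40.9 on arrays III, against 110, 131 and 139 on arrays II (-1.49, limma adjusted p = 0.0240). Vgf, a neurotrophin-inducible secreted peptide precursor, fell by 1.90 (0.0240) and Phlda1, an immediate response gene, by 1.06 (0.0267). The other 2 were Ier3 (-1.30) and Egr2 (-1.35), both early response genes named after their values were seen. Nor can the small counts in the other lists be set against the 3.56% of all genes. Among 23 feedback inhibitors 2 passed, both lower in III: Spry4, a Sprouty inhibitor of MAP kinase signalling, fell by 1.31 (0.0360) and the ubiquitin ligase Stub1 by 0.59 (0.0492). Of 27 adaptors, Nck2 passed at -0.73 (0.0492), of 22 cascade genes Rps6ka2, a ribosomal S6 kinase, at 1.04 (0.0483), and of 35 other receptors Epha4, an ephrin receptor, at -0.71 (0.0351). No ligand passed, and Pdgfa came closest at 0.76 (0.39 to 1.13, limma adjusted p = 0.0608). When all probes were tested, 0 of 35009 passed for III minus II, with 5813 at an unadjusted p under 0.05. The astrocyte marker Gfap also was higher in III than in II, by 1.72 (limma adjusted p = 0.0240), at readings of 0.352, 0.597 and 0.501 on arrays III against 0.113, 0.139 and 0.187 on arrays II. The astrocyte gene Gja1 went the other way, with 0.253, 0.274 and 0.168 on arrays III against 1.03, 0.532 and 1.56 on arrays II (-2.06, limma adjusted p = 0.0682). Of the 6 astrocyte markers 3 were higher and 3 lower in III, with a median of -0.05, and their part in these differences was not tested.

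**Figure D4:**
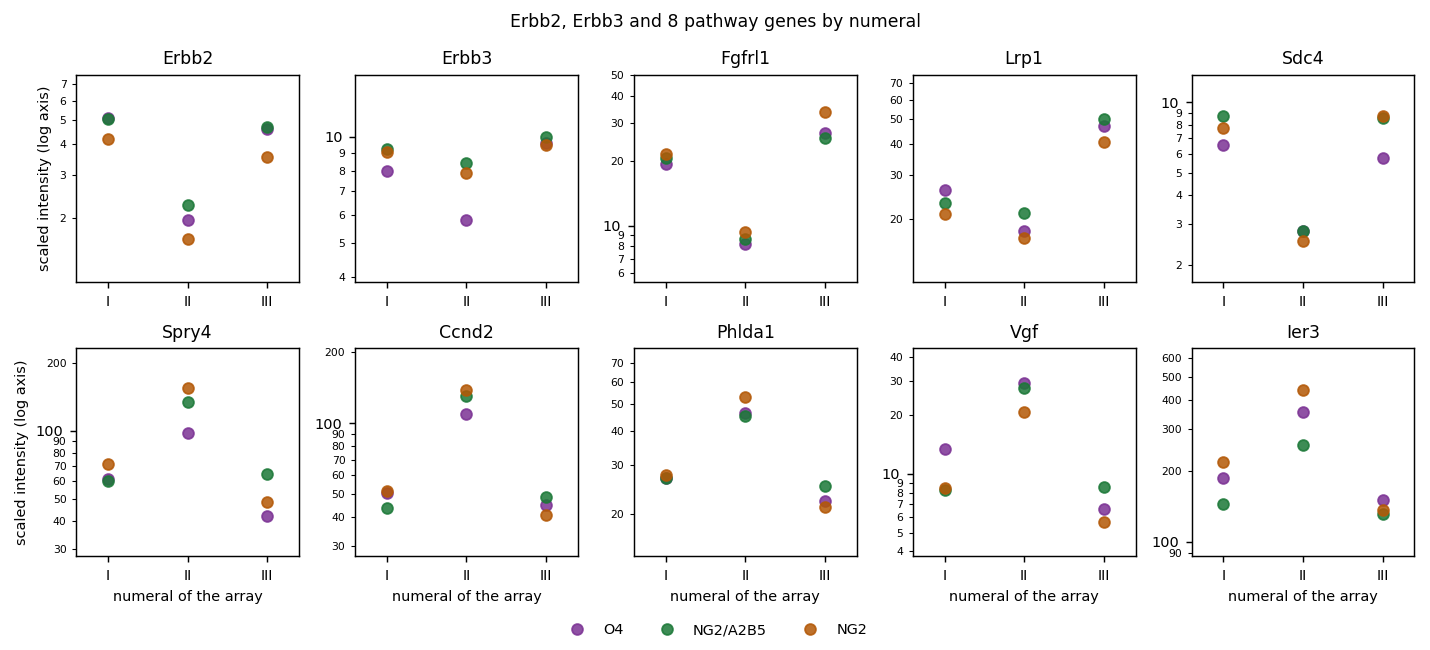
Intensity (log axes, 1 per panel) by numeral I, II and III for Erbb2, Erbb3 and 8 pathway genes, with 1 point per array coloured by population. Erbb2, Fgfrl1 and Sdc4 dip on arrays II in O4, NG2/A2B5 and NG2 alike, while Ccnd2, Vgf, Phlda1, Spry4 and Ier3 peak there.

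The genes whose profile over the 9 arrays lay nearest to each receptor were found by the root mean square difference of mean-centred log2 values, among 9783 genes over the background level. Nearest to Erbb2 was Mia, at 0.152, against a median of 0.695 over all genes compared, followed by Phyh at 0.168 and Pdk2 at 0.186. Nearest to Erbb3 were Bnip3l (0.0781), Wdr24 (0.0808) and Atp11b (0.0828), where the median gene stood at 0.367. Ntrk2 lay nearest to Atp6v1a (0.0466, against a median of 0.308), a subunit of the vacuolar proton pump, then to Atg4b (0.0645) and Tollip (0.0709). Fgfr1 lay nearest to Maz (0.0907), Actn4 (0.0940) and Atf6 (0.0944), against 0.321. Erbb4 lay nearest to Itfg1 at 0.0785, against 0.434. Pdgfra had no neighbour closer than 0.298, against a median of 0.691, and Fgfr2, Pdgfrb and Egfr none closer than 0.536, 0.575 and 0.199. Among so many genes some lie near any profile, and no receptor was among the 3 nearest genes of another.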

How the data were processed

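The deposited values are linear probe intensity readings from the authors, with nearly equal array medians. Per the labels' protocols, 10 ng of total RNA went through 2 rounds of in vitro transcription with spiked controls used for normalization; scanner and software are not stated. Values coded -9999 were treated as missing, and values at or below 0 were set to the array's smallest positive value before log2. Of 35129 probes, 16865 carry 1 gene symbol, 165 several and 18099 none. A probe with Fgfr1 and a second symbol was left out. Symbols were checked by Entrez identifier in a RefSeq table (16836 probes matched, 1 symbol updated). The probe with the highest mean represents a gene, which gave 12167 genes.

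Differences were fitted with limma 3.58.1 (lmFit, eBayes, two-sided) in R 4.3.3 on all 9 arrays: populations alone (6 residual degrees of freedom, prior 1.76), and populations plus numerals (4, prior 1.55). A gene was called under 0.05 after Benjamini-Hochberg adjustment of p over all genes. Precision is limited by having 9 arrays. The numerals pair the arrays: deviations from population means correlated at 0.217 to 0.463 in the 9 same-numeral pairs between populations and at -0.357 to 0.0047 in the 18 others, over 9783 genes. The fit was also run on simulated data with independent arrays and differences in O4 only. Those data held no pairing by numeral, so that run does not bear on the pairing or the numeral contrasts. Members, lists and tests were chosen with earlier results of these data known. Genes could be named if they were receptors, among the 3 with the smallest p of a list in either F test, among the 3 nearest to a receptor, or cell type markers; the text prints a part of these and marks other list genes. Alternatives were a common floor, quantile and median scaling, leaving out dim genes, the mean of probes, all probes, trend and robust estimates (statmod 1.5.0), the numeral as fixed or random block, fewer arrays, plain statistics and no population term. Sequences and genome positions of the probes are not used here. Plots were made in Python 3.11.15 with matplotlib 3.10.9.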

Additional observations from a re-analysis of the deposited data

How the results depend on the processing

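Of 1014 recomputed receptor differences, 933 kept their direction and their side of the threshold, 58 changed sign where the main interval included 0, 21 lost a call, 0 gained one and 2 reversed. Both reversals came with the mean of a gene's probes, where dim probes enter: III minus II was -0.58 for Erbb2 and -0.55 for Erbb3. In the population comparisons no setting called a receptor. In the numeral comparisons, 1 receptor (Erbb2) passed in III minus II, II minus I and the F test, and 0 passed with the mean of probes, with all probes (adjusted p 0.0740, 0.144 and 0.113) and without any 1 array. Counts of all genes called moved more. For O4 minus NG2, O4 minus NG2/A2B5 and the F test over populations, the single call became 0 with the common floor, without dim genes, with trend and robust estimates and with the fixed replicate block. It also became 0 with plain statistics in both contrasts and, for O4 minus NG2, with only the 6 arrays. The mean of probes and all probes each called 2 genes for O4 minus NG2, 1 for NG2/A2B5 minus NG2 and 2 in the F test. The replicate block with trend and robust estimates, added after the values were seen, called 124, 95 and 101 in these 3, and the random block (correlation 0.274) changed no count. For III minus II (433 in the main model), the common floor called 1047, leaving out dim genes 1216, the mean of probes 136, all probes 0 and trend and robust estimates 1884. In the same order the F test over numerals (82) gave 613, 832, 36, 0 and 1818, and II minus I (28) gave 206, 366, 2, 0 and 836. III minus I (0) gave 1 with the floor, 25 without dim genes and 312 with trend and robust estimates. Without a population term the F test gave 242 and II minus I 63. Quantile normalization split the calls of II minus I as 11 higher and 27 lower, against 11 and 17. Leaving out each array in turn gave 0 to 5 calls for III minus II, 0 to 3 for II minus I, 0 to 2 for III minus I and for the F test over numerals, 1 to 2 for O4 minus NG2, 0 to 4 for O4 minus NG2/A2B5, 0 to 3 for NG2/A2B5 minus NG2 and 1 to 4 for the F test over populations. Receptor calls were 0 in all of these. The causes of these shifts were not tested. Readings of Pdgfrb and Egfr are limited by background.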
